A study of Mus musculus with 23 samples.

Results

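Steroid hormone receptors were described here in the mouse nucleus accumbens, as measured on 23 microarrays, 1 per mouse. The 5 genes were Esr1 and Esr2, which encode the estrogen receptors alpha and beta, Pgr, the progesterone receptor, Nr3c1, the glucocorticoid receptor, and Nr3c2, the mineralocorticoid receptor. They were found by name: each gene was represented by the probe set that the array annotation gives to that symbol alone, and where a gene had several such probe sets, by the one with the highest mean over all arrays. All 5 genes were found among the 22180 genes with such a probe set. The study compared mice that had received an adeno-associated virus carrying an shRNA for Nr1d1, the gene of the circadian repressor REV-ERB alpha, in the nucleus accumbens with mice that had received a virus carrying a scrambled shRNA. The groups were 6 female knockdown and 5 female control mice, and 6 male knockdown and 6 male control mice. All were C57BL/6 mice of about 15 weeks, injected about 5 weeks before the tissue was punched out, so that every group, controls included, carried a virus and an injection. The labels' treatment text speaks of postpartum day 7 and of litters set to 11 pups for samples of both sexes, so the reproductive state of the mice was not settled from it. The labels name neither the hour of collection nor the serotype of the virus nor the cell types it reached.

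These receptors are transcription factors that a steroid switches on. Without hormone they are held, many of them in the cytoplasm, in complexes with the heat shock protein HSP90 and its partner proteins. With hormone they bind DNA as dimers and recruit coactivators or corepressors. In the brain, Esr1 and Pgr are best known from the hypothalamus and preoptic area, where estradiol raises Pgr transcription. In the nucleus accumbens, estradiol modifies dopamine signalling, and corticosterone acts through Nr3c1 on dopamine receptive neurons. The mineralocorticoid receptor binds corticosterone in the brain with a higher affinity than the glucocorticoid receptor.

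The start regions of Pgr and Esr2 are shown because Pgr had the largest difference between knockdown and control means of the 5 genes over both sexes, and because the Esr2 window was the only one of 5 windows, from 4 of the genes, that held any of the motifs searched. Both are RefSeq windows on build GRCm38.p6, from 250 bases before the start of the gene to 50 bases after it, and both are read in the direction of the gene. The Pgr window is chr9:8899583-8899882 on the plus strand and the Esr2 window is chr12:76177210-76177509 on the minus strand. Capitals mark the E-box.
Pgr: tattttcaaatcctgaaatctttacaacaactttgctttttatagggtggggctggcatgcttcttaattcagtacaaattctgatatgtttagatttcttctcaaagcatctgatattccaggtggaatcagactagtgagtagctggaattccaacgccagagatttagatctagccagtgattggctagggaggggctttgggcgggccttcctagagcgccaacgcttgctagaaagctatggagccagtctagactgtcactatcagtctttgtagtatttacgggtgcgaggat
Esr2: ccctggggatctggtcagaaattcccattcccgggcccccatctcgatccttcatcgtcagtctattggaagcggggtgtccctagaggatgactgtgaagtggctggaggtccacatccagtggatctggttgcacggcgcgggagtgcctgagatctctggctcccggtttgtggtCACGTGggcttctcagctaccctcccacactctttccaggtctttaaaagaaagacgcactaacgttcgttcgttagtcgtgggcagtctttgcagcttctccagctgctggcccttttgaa
The motifs, searched on both strands, were AGGTCA, the core sequence bound by REV-ERB and ROR proteins and, as an inverted pair, by estrogen receptors; its longer REV-ERB form, in which AGGTCA follows A, A, any base and T; the estrogen response element, GGTCA and its reverse complement TGACC with 3 bases of any kind between them; ACANNNTGT, the core of the element shared by the glucocorticoid, mineralocorticoid and progesterone receptors; and CACGTG, the E-box of the clock activators. The longer form contains AGGTCA. The E-box of Esr2 began 72 bases before the start. Over 32851 windows of the same length, CACGTG was found in 7.15%, AGGTCA in 16.3%, ACANNNTGT in 6.85%, the longer REV-ERB form in 0.219% and the estrogen response element in 0.07%. A match or its lack describes the letters of these windows and nothing about binding.

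The targeted gene did not separate the groups. Nr1d1 averaged 9.99 ± 0.16 in the female arrays labelled knockdown and 10.04 ± 0.07 in the female controls, and 9.58 ± 0.13 in the male arrays labelled knockdown and 9.59 ± 0.20 in the male controls (log2 intensity, mean ± SD, n = 6, 5, 6 and 6). The differences of −0.05 in females and −0.01 in males gave exact permutation p-values of 0.563 and 0.926 (two-sided), so every knockdown difference below is one between labelled groups. The sex labels held: Xist, the RNA of the inactive X chromosome, lay between 3.85 and 4.12 in the males and between 11.40 and 11.78 in the females. The defining transcripts of medium spiny neurons, the main cells of the nucleus accumbens, were high in each array. Among the 22180 genes, 1 probe set each, Drd2, a dopamine receptor, lay above at least 98.4% in its array and Drd1 above at least 94.7%. Slc17a7, a marker of cortical glutamatergic neurons, varied far more, from 5.37 to 9.97 in male knockdown and from 4.64 to 10.34 in male control arrays, and from 8.92 to 11.13 in female knockdown and from 9.40 to 11.05 in female control arrays. Array medians were 5.84 to 5.88 in males and 6.11 to 6.17 in females, with no array between, and sex and the processing of the array sets cannot be told apart, so levels were tested within a sex only.

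The corticosteroid receptors gave bright signals and the sex steroid receptors signals near the middle of the array, as shown in the plot of levels by mouse. Nr3c1 lay above 87.8% to 91.1% of the 22180 genes in its array and Nr3c2 above 77.4% to 80.8%. Esr1 lay above 43.2% to 54.2%, Pgr above 43.4% to 50.7% and Esr2 above 39.0% to 48.1%. These places describe how bright each probe set was and do not rank the genes by RNA amount, since probe sets differ in response. In punched tissue, fewer cells of a type and less RNA per cell cannot be told apart.

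**Figure D1:**
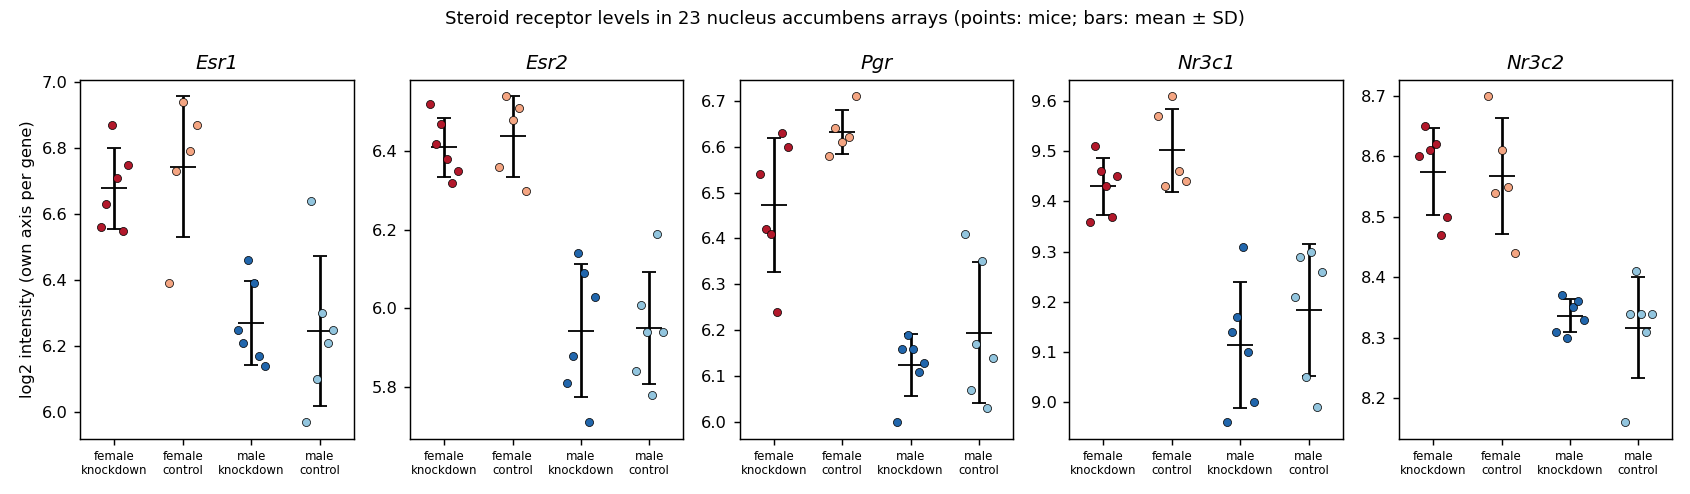
Log2 intensity of Esr1, Esr2, Pgr, Nr3c1 and Nr3c2 in each of the 23 mice, with the knockdown group left of its control in each sex; each point is a mouse and the bars give the mean and SD of the group. The 2 groups of a sex overlap for each gene, and Pgr in female knockdown mice reaches the lowest female value, 6.24.

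Esr1, the main estrogen receptor of reproductive control, differed widely between mice and little between the labelled groups. Female knockdown mice ranged from 6.55 to 6.87 with a median of 6.67, and the female controls had 6.39, 6.73, 6.79, 6.87 and 6.94. Male knockdown mice ranged from 6.14 to 6.46 with a median of 6.23, and male controls from 5.97 to 6.64 with a median of 6.23. In both sexes the control group held both the lowest and the highest array, and the knockdown values lay inside it. The difference was −0.07 ± 0.10 (SE) in females and 0.03 ± 0.10 in males, with limma adjusted p of 0.962 and 0.996 over all probe sets. The 2 groups of a sex overlapped for each of the 5 receptors, and over all probe sets they stood apart for 0.588% in females and 0.109% in males.

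Esr2 showed the smallest difference between group means in males of the 5 genes. Female knockdown mice ranged from 6.32 to 6.52 with a median of 6.40, and the female controls had 6.30, 6.36, 6.48, 6.51 and 6.54. Male knockdown mice ranged from 5.71 to 6.14 with a median of 5.96, and male controls from 5.78 to 6.19 with a median of 5.94. The groups overlapped over most of their range in both sexes. The difference was −0.03 ± 0.08 (SE) in females and −0.01 ± 0.07 in males (limma, adjusted p 0.984 and 0.998), and the male value was 0.001 after quantile normalization.

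Pgr was the gene whose knockdown mice lay most on 1 side. Its levels in female knockdown mice ran from 6.24 to 6.63 with a median of 6.48, and the female controls had 6.58, 6.61, 6.62, 6.64 and 6.71. In males, knockdown mice ran from 6.00 to 6.19 with a median of 6.145, and controls from 6.03 to 6.41 with a median of 6.155. Of the 6 female knockdown arrays, 4 lay below all controls and the other two, at 6.60 and 6.63, lay among them. The male groups overlapped almost fully, and controls 1 and 4, at 6.41 and 6.35, stood above all other males. Each of the 12 knockdown mice lay below the control mean of its sex. At least 10 of 12 knockdown mice lay on 1 side of their control means for 10.5% of all probe sets, and the share for all 12 was not computed. The difference was −0.16 ± 0.07 (SE; 95% confidence interval −0.31 to −0.01) in females and −0.07 ± 0.07 (−0.21 to 0.07) in males.

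No probe set passed an adjusted p of 0.05 in females in the limma fit (0% of 41345), while 2423 had an unadjusted p under 0.05 (5.86%). Pgr was the only one of the 5 receptors among these 2423, with an unadjusted p of 0.036 and an adjusted p of 0.85. In males no probe set passed either (0%), and none of the 5 receptors was among the 1948 with an unadjusted p under 0.05 (4.71%). Averaged over both sexes the Pgr difference was −0.11 ± 0.05 (SE; −0.22 to −0.01), with an unadjusted p of 0.029 and an adjusted p of 0.98, where 0% of probe sets passed after adjustment and 4.71% before it. The exact permutation test was two-sided and exchanged labels within each sex. Not adjusted over genes, it gave Pgr a p of 0.0476 in females, 0.351 in males and 0.0275 over both sexes. After Benjamini-Hochberg adjustment over the 5 receptors in both sexes, the permutation p was 0.476 in females and 0.909 in males. Adjusted over the 5 receptors, the permutation p over both sexes was 0.138. The smallest unadjusted p this test could give for Pgr within a sex was 0.0022. Female knockdown replicate 4 and male control replicate 1 carried the most weight: without the one the female difference was −0.11, and without the other the male difference was −0.03. The difference between the male and the female knockdown effect on Pgr was 0.09 ± 0.10 (limma, adjusted p 0.95), where 0% of probe sets passed and 5.7% had an unadjusted p under 0.05.

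**Figure D2:**
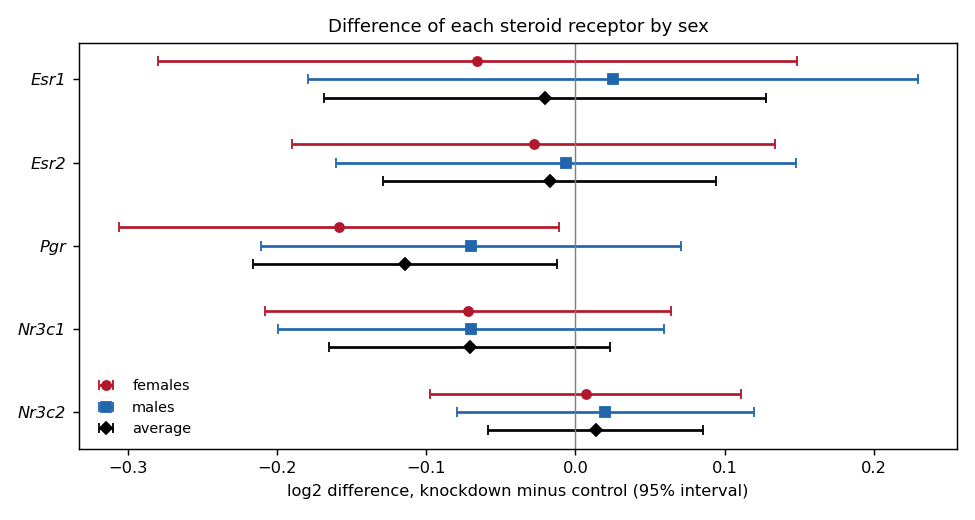
Knockdown minus control in log2 units for each receptor, in females, in males and averaged over both sexes; points are limma estimates and bars their 95% confidence intervals. The Pgr intervals in females, −0.31 to −0.01, and over both sexes, −0.22 to −0.01, leave out 0 before any adjustment over probe sets, and all others include it.

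Nr3c1, which binds corticosterone at the higher concentrations of stress and of the active phase, gave a narrow interval around a small difference. Female knockdown mice ranged from 9.36 to 9.51 with a median of 9.44, and the female controls had 9.43, 9.44, 9.46, 9.57 and 9.61. Male knockdown mice ranged from 8.96 to 9.31 with a median of 9.12, and male controls from 8.99 to 9.30 with a median of 9.24. Of the 12 knockdown mice, 10 lay below the control mean of their sex, which 10.5% of probe sets matched on either side. The female groups overlapped between 9.43 and 9.51 and the male groups almost fully. The difference was −0.07 ± 0.07 (SE) in females and −0.07 ± 0.06 in males, and averaged over both −0.07 ± 0.05 (−0.16 to 0.02; limma, adjusted p 0.98; exact permutation p 0.104). The lower end of that interval puts any mean reduction of Nr3c1 at 0.16 log2 units or less at this confidence level.

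Nr3c2 had the smallest SD between mice when pooled over the groups. Female knockdown mice ranged from 8.47 to 8.65 with a median of 8.61, and the female controls had 8.44, 8.54, 8.55, 8.61 and 8.70. Male knockdown mice ranged from 8.30 to 8.37 with a median of 8.34, and male controls from 8.16 to 8.41 with a median of 8.34. The knockdown arrays lay within the range of the controls in both sexes. The difference was 0.01 ± 0.05 (SE) in females, 0.02 ± 0.05 in males and 0.01 ± 0.03 over both (−0.06 to 0.09; limma, adjusted p 0.99). A further probe set of Nr3c2 gave −0.06 ± 0.04 over both sexes (−0.15 to 0.03; limma, adjusted p 0.98), so the probe sets of this gene differed in sign. Its group means were 6.04 in female knockdown and 6.09 in female control mice, and 5.31 in male knockdown and 5.37 in male control mice. A probe set shared with the gene model Gm10649 was not assigned to Nr3c2. That shared probe set gave −0.10 ± 0.09 (SE) in females and 0.02 ± 0.08 in males. Over both sexes it gave −0.04 ± 0.06 (limma, adjusted p 0.99). The correlations of Nr3c2 given below used only its probe set with the highest mean.

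Across the 5 receptors, 1 lay higher and 4 lower in knockdown mice by the average over both sexes, with a median of −0.02, beside a median of 0.00 over all genes, of which 51.3% lay higher. The male minus female effect ran from 0.00 to 0.09 for the 5 genes and none had an unadjusted p under 0.05. The cortical marker list, of whose 7 genes 6 were measured, differed by more than any receptor in males and over both sexes. In females the list differed by less than Pgr (−0.16), Nr3c1 (−0.07) and Esr1 (−0.07). Its genes had a median difference of 0.43 in males, 0.06 in females and 0.24 over both sexes, with 5 of 6 higher in knockdown mice in each sex and none past the adjusted threshold in limma. The mean level of the list was 7.53 ± 0.72 in male knockdown mice (SD; range 6.21 to 8.27) and 7.11 ± 1.15 in male control mice (5.99 to 8.65). It was 8.27 ± 0.45 in female knockdown mice (7.53 to 8.84) and 8.22 ± 0.34 in female control mice (7.71 to 8.63). The 7 measured medium spiny neuron markers had a median difference of 0.11 in males, where 7 lay higher, and of −0.04 in females, where 2 lay higher and 5 lower. The part of these markers in the receptor differences was not tested.

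Pooled over the groups, the spread between mice of a group was largest for Esr1 and smallest for Nr3c2. This order did not hold in each group: the largest SD was that of Esr2 (0.17) in male knockdown and of Pgr (0.15) in female knockdown mice, and the smallest was that of Nr3c1 (0.06) in female knockdown and of Pgr (0.05) in female control mice. The pooled SD within groups was 0.18 for Esr1, 0.13 for Esr2, 0.12 for Pgr, 0.10 for Nr3c1 and 0.07 for Nr3c2, beside a median of 0.12 over all genes. Of all genes, 86.2% had a smaller SD than Esr1 and 8.52% a smaller SD than Nr3c2. Among genes with a mean level within 0.5 log2 units of their own, the shares were 82.9% for Esr1, 42.4% for Esr2, 29.6% for Pgr, 65.2% for Nr3c1 and 16.9% for Nr3c2. Nr3c1 thus varied more than most genes of its level, although over all genes 34.5% had a smaller SD. Esr1 spread further in both control groups (SD 0.23 in males and 0.21 in females) than in the knockdown groups (0.13 in males and 0.12 in females); this difference in spread was not tested.

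Between the sexes the values are a description only. The male minus female difference of the deposited levels was −0.45 for Esr1, −0.48 for Esr2, −0.39 for Pgr, −0.31 for Nr3c1 and −0.25 for Nr3c2, against a median of −0.27 over all genes. After quantile normalization over all 23 arrays the median over all genes was −0.01 and the receptors stood at −0.18, −0.20, −0.11, −0.05 and 0.02 in the same order. Esr1, Esr2, Pgr and Nr3c1 lay below the median shift by both scalings, and Nr3c2 lay slightly above it by both.

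The receptors' own partners and targets were looked at next, as 7 lists of genes named by function. No gene of any list passed the adjusted threshold in the limma fit in any of the comparisons. By the average over both sexes, an unadjusted p under 0.05, which 4.71% of all probe sets had, was met by 1 of 9 coregulators, 0 of 10 chaperones, 0 of 11 other receptors, 1 of 18 glucocorticoid responsive genes, 3 of 9 sex steroid responsive genes with Pgr among them, 1 of 12 steroid enzymes and 1 of 4 clock receptors. On the same average, 8 of 9 measured coregulators lay higher in knockdown mice, with a list median of 0.03. The 2 with the smallest p-values were Med1, a Mediator subunit, at 0.07, and Ncoa3, a coactivator, at 0.06. Of 10 chaperones and partner proteins, 3 lay higher and 7 lower (median −0.02); the 2 named by the same rule were Bag1, an HSP70 partner, at −0.08, and Fkbp4, an HSP90 partner, at 0.06.

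Among 11 other receptors of steroids or related orphans, 3 lay higher and 8 lower (median −0.04), and the 2 with the smallest p-values were Paqr5, a membrane progestin receptor, at −0.09, and Esrrg, an estrogen related orphan receptor, at −0.07. Of 18 genes known to respond to glucocorticoids, 8 lay higher and 10 lower (median 0.00). Per1, a clock gene with a glucocorticoid response element, stood at 0.14, above the control mean in 12 of 12 knockdown mice, and Nfkbia, an inhibitor of NF-kappa-B, at −0.10. Of 9 genes known to respond to sex steroids, which include Pgr itself, 7 lay higher and 2 lower (median 0.03). Gal, the neuropeptide galanin, which estradiol raises in the pituitary, stood at 0.17, higher in 11 of 12 knockdown mice. Tnfsf11, which encodes RANKL, a progesterone target of the mammary gland, stood at 0.13, higher in 10 of 12. The signal of Tnfsf11 was dim, above 17.3% to 28.2% of the 22180 genes in its array. Male control 6 was low for Tnfsf11, at 4.41, with the other male controls between 4.67 and 4.79.

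The enzymes that make or clear steroids were spread around 0, with 7 of 12 higher and 5 lower (median 0.00). Hsd17b12, which acts in fatty acid elongation and can reduce estrone, stood at −0.12, lower in 11 of 12 knockdown mice, and Cyp7b1, a steroid hydroxylase, at 0.06. Of 4 measured REV-ERB and ROR receptors of the clock, Nr1d1 among them, 1 lay higher and 3 lower: Rora, an activator at that sequence, stood at −0.09, lower in 12 of 12 knockdown mice, and Rorb at 0.08. The adjusted p of each named gene of these lists was 0.98 over both sexes. Beside these counts of mice, 10.5% of all probe sets had at least 10 of 12 on 1 side. Shares for 11 and for 12 of 12 were not computed. The plot of related genes shows them with the receptors.

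**Figure D3:**
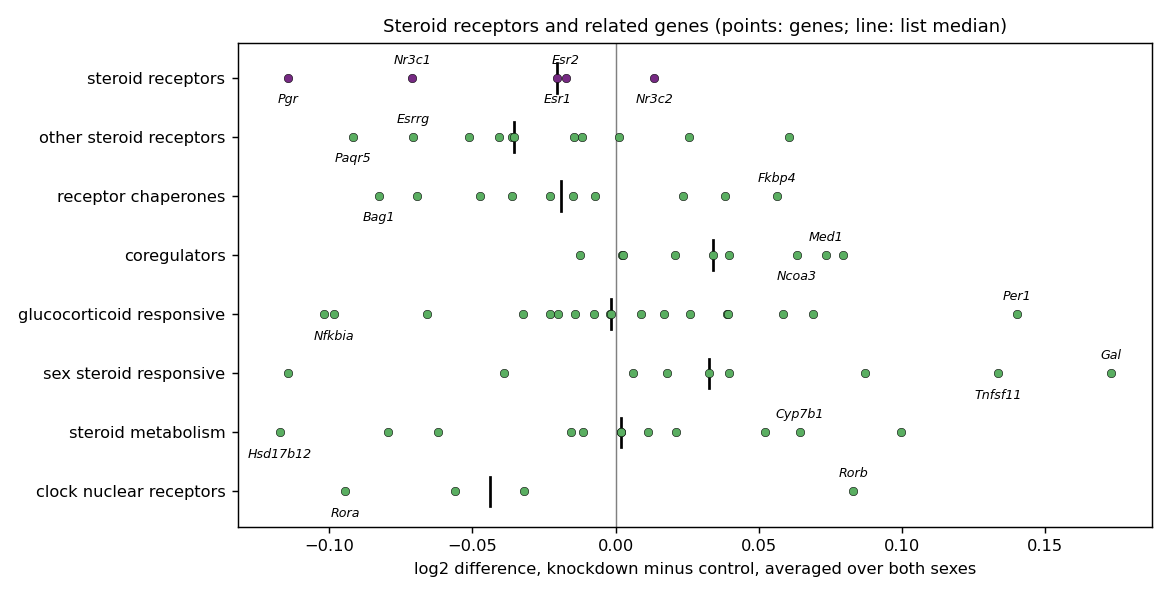
Knockdown minus control averaged over both sexes, in log2 units, for the genes of the receptor lists; each point is a gene, the line is the list's median, and the lists are grouped by function, with the 5 receptors as a group of their own and Pgr also among the sex steroid responsive genes. The receptors lie between −0.11 and 0.01, and all the genes plotted lie between −0.12 and 0.17.

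Correlations between the receptors across mice differed in sign and in size. For the 10 pairs, the correlation was taken over the 23 mice after the group means were removed. Pgr and Nr3c2 had the strongest, with Pearson's r of −0.57 and Spearman's rho of −0.56 (permutation p 0.00686 and 0.0102; 0.0686 and 0.102 after Benjamini-Hochberg adjustment over the 10 pairs). Within males r was −0.45 (permutation p 0.312) and within females −0.69 (permutation p 0.00433). Without the 2 mice farthest in Pgr, male control 1 and female knockdown 4, r was −0.45, and leaving out male control 1 alone brought it to −0.43. The 2 estrogen receptors had an r of 0.31 and a rho of 0.24 (permutation p 0.182 and 0.292), and the 2 corticosteroid receptors an r of 0.22 and a rho of 0.30 (permutation p 0.34 and 0.172). For the corticosteroid pair r was −0.03 within males (permutation p 0.942) and 0.66 within females (permutation p 0.05, and 0.25 after adjustment over the 10 pairs). No pair passed the adjusted threshold over all mice.

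Esr1 moved between mice with the mean of a list of genes known to respond to sex steroids, though not with most of them singly. This relation came to notice after the values were seen, among 20 relations of receptors with the means of lists. Over 8 such genes without Pgr, the mean followed Esr1 with an r of 0.71 and a rho of 0.71 (permutation p 0.00048 and 0.00046, adjusted over the 20 relations 0.0096 and 0.0092). Within males r was 0.63 and within females 0.82, and without male control 2 and female control 1 it was 0.58. Oxtr, the oxytocin receptor, which estradiol raises in the brain and uterus, was the nearest of these genes, with an r of 0.81 and a rho of 0.84. Of the 22179 other genes, 7 had a higher r with Esr1 than Oxtr had, and 44 a higher r than the list mean had. Within males the r with Oxtr was 0.88 and within females 0.74, and it was 0.75 without the 2 mice farthest in Esr1.

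Several mice stood at the same end of their group in both genes. Male control 2 had the highest level of its group in each, 6.64 for Esr1 and 6.93 for Oxtr, and so had male knockdown 3, with 6.46 and 6.91. Female control 1 had the lowest of its group in each, 6.39 for Esr1 and 6.33 for Oxtr. In the mean of the cortical markers, male knockdown 3 was likewise the highest of its group, at 8.27. Female control 1 was the lowest of its group there, at 7.705. The highest male control there was 1, at 8.65, and not 2. Among the other sex steroid responsive genes, Ccnd1, a cell cycle gene, had an r of 0.68 with Esr1, and Nrip1, a corepressor, 0.62. Nrip1 had an r of 0.63 with Nr3c1 too. With Esr1, Greb1, an estrogen target in breast cells, had 0.29, Gal 0.20, Tnfsf11 0.09, Ctsd −0.06 and Igfbp4 −0.11, and Pgr itself −0.22. Without Oxtr the list mean kept an r of 0.60 and a rho of 0.61 with Esr1 (permutation p 0.00584 and 0.0058). Esr1 itself had an r of 0.41 and a rho of 0.52 with the mean of the cortical markers (permutation p 0.106 and 0.0186), with 0.33 within males and 0.73 within females, and 0.21 without the 2 mice farthest in Esr1. With the mean of the medium spiny neuron markers the pooled r of −0.06 and rho of −0.23 (permutation p 0.825 and 0.327) joined opposite signs in the sexes, 0.42 within males (permutation p 0.278) and −0.77 within females (permutation p 0.00282). Neither pooled relation passed after adjustment over 45 relations with marker lists, and the within-sex p-values were not adjusted. With the cortical marker mean held constant, r was 0.68 for the list and 0.77 for Oxtr, and with the medium spiny neuron marker mean held constant 0.73 and 0.81. Each of these used 1 slope over both sexes, although the marker relations differed between the sexes. With opposite signs in the sexes, the medium spiny neuron mean could take out little. The part of cell composition in the Esr1 relation was thus not tested.

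**Figure D4:**
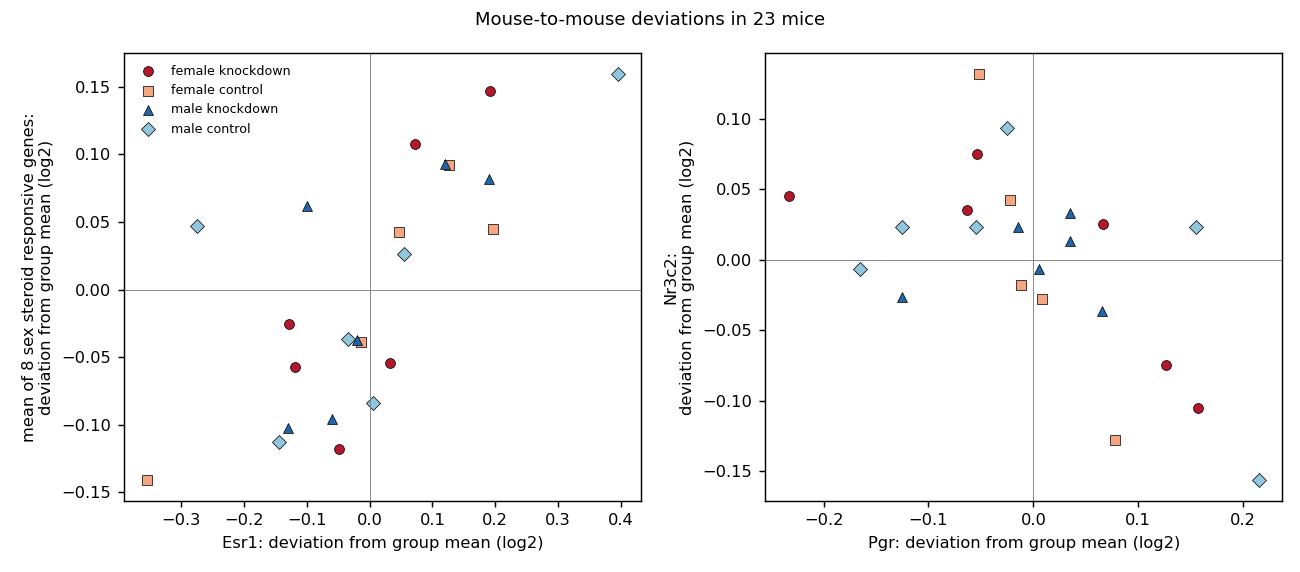
Deviations of single mice from their group mean, in log2 units, with knockdown and control mice of each sex marked apart. The left panel sets the mean of 8 sex steroid responsive genes against Esr1 (r 0.71 over 23 mice) and the right panel Nr3c2 against Pgr (r −0.57); male control 2 lies at the upper right of the left panel and male control 1 at the lower right of the right one.

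For Nr3c1 the mean of 18 glucocorticoid responsive genes gave an r of −0.03 and a rho of −0.06 (permutation p 0.897 and 0.801). The mean of 10 chaperones and partners gave an r of 0.58 and a rho of 0.52 (permutation p 0.00681 and 0.0212, adjusted over the 20 relations 0.0681 and 0.162), with 0.77 within males and 0.20 within females, and 0.46 without male control 5 and male knockdown 4. For Nr3c2 the glucocorticoid responsive mean gave an r of −0.46 and a rho of −0.31 (permutation p 0.0458 and 0.168, adjusted 0.229 and 0.56). Nr3c2 had an r of 0.54 and a rho of 0.48 with the mean of 7 medium spiny neuron markers (permutation p 0.0153 and 0.0319). Its r was 0.64 within males, 0.48 within females and 0.34 without male control 1 and female control 5. The lowest p adjusted over the 45 marker relations was 0.415 for r and 0.386 for rho.

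The genes most like each receptor over the 23 mice, by Pearson's r of deviations from group means, are given as a description. For Esr1 they were Ndst4 at 0.89, a heparan sulfate enzyme, Prkca at 0.87, protein kinase C alpha, and Tanc1 at 0.86, a postsynaptic scaffold protein. For Nr3c1 they were Gda at 0.84, guanine deaminase, Klhl24 at 0.84 and Kmt5b at 0.83, a histone methyltransferase. Nr3c2 was most like Myo3b at 0.85, Spata13 at 0.79 and Crym at 0.78, the thyroid hormone binding mu-crystallin. Those of Esr2 were Gm6034 at 0.76, Efna2 at 0.74, an ephrin, and Mrpl4 at 0.74, a mitochondrial ribosomal protein. Those of Pgr were Mnd1 at 0.77, Homer3 at 0.72 and 1700120K04Rik at 0.71. These 3 probe sets were dim, with mean levels of 3.76, 4.93 and 5.29 over the 23 mice. Xist in the males, at 3.85 to 4.12, lay above the mean level of Mnd1. An r of 0.75 for Esr1, 0.64 for Esr2, 0.62 for Pgr, 0.76 for Nr3c1 and 0.71 for Nr3c2 was exceeded by 0.1% of genes.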

How the data were processed

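RNA of punched nucleus accumbens from 23 mice (150 ng each, GeneChip WT Plus kit, per the labels' protocols) was measured on 1-colour arrays, 1 per mouse. The authors deposited 1 log2 intensity for each probe set and mouse, made with the Transcriptome Analysis Console, per the submitters' processing notes. For its version, the build and the normalization, no value was given in the sources used here. All value columns belonged to these 23 mice. The number of arrays limits the precision.

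From these values, limma 3.58.1 (R 4.3.3) estimated a mean for each group of sex and label in 41345 probe sets. Benjamini-Hochberg adjustment took in every probe set, and an adjusted p under 0.05 counted as a call. Single symbols were held by 23521 probe sets, several by 1814 and none by 16010. Exact permutation tests of members and correlations of deviations from group means, with 100000 permutations within groups, used NumPy 2.4.6 and SciPy 1.17.1. The fitting was tested on simulated data. P-values judge differences and correlations against the spread between mice.

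The members and lists were chosen with earlier results of these data known. The genes named from each list were the 2 with the smallest unadjusted p for the average over both sexes. List genes without a probe set of their own symbol were not analysed here. Of the members, 4 matched the RefSeq start regions. Relations of members with 9 marker lists were computed as 45 correlations, and none passed the adjusted threshold (lowest adjusted p 0.415 for r and 0.386 for rho). Alternatives were quantile normalization, array weights, a trended and robust prior, a filter on dim probe sets, the mean of a gene's probe sets, each sex alone, a replicate block, leaving out each array, and leaving out male controls 1 and 6.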

Additional observations from a re-analysis of the deposited data

Results flagged for a closer look

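In 80 sets of values, those of 20 genes in each of the groups of 5 or 6 mice, 3 held an array far from the rest by Dixon's test at its 95% limit, which chance gives in about 1 in 20 sets. None was of a steroid hormone receptor. Nr1d1 was lowest in female control replicate 4, at 9.93, with the other controls between 10.05 and 10.09. Nfkbia was lowest in male knockdown replicate 6, at 7.00, with the others between 7.30 and 7.45. Tnfsf11 was lowest in male control replicate 6, at 4.41, with the others between 4.67 and 4.79.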

How the results depend on the processing

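The 20 receptor differences were recomputed in 610 alternative values, of which 561 kept their direction, 49 changed sign and 0 passed the adjusted threshold. Many of the 561 could not have changed sign. The trended and robust prior, the filter on dim probe sets and each sex alone leave a difference within a sex as it was. So does leaving out an array of the other sex, and so does the mean of probe sets for each receptor but Nr3c2. The knockdown minus control difference of Pgr stayed below 0 throughout, from −0.19 to −0.11 in females, −0.10 to −0.03 in males and −0.13 to −0.09 over both, and so did Nr3c1 in each sex. The sign changes were of differences near 0, and their cause was not tested. Quantile normalization gave Esr2 in males 0.0010 and male minus female effects of −0.028 for Nr3c1 and −0.024 for Nr3c2. The mean of its probe sets gave Nr3c2 −0.0215 in females, −0.0208 in males and −0.0212 over both. Array weights gave an Esr2 male minus female effect of −0.0026 and 1 probe set past the threshold in that comparison. Without male controls 1 and 6, Esr1 in males was −0.0425, Nr3c2 was −0.0133 in males and −0.0032 over both, the male minus female effects were −0.0087 for Esr2 and −0.0203 for Nr3c2, and 1 probe set passed in males and 1 in the male minus female comparison.

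Leaving out 1 array at a time gave Nr3c2 −0.025 to 0.04 in females, −0.0113 to 0.0387 in males and −0.0025 to 0.03 over both. Esr1 ran from −0.03 to 0.104 in males and from −0.0646 to 0.0192 over both. Esr2 ran from −0.046 to 0.0413 in males and from −0.037 to 0.0067 over both. The male minus female effects ran from −0.018 to 0.0693 for Esr2, −0.0373 to 0.0327 for Nr3c1 and −0.02 to 0.045 for Nr3c2. Differences that kept their sign moved too: in females Esr1 ran from −0.154 (without control 1) to −0.0167 (without control 3) and Esr2 from −0.0625 to −0.0025, and Nr3c1 ran from −0.109 to −0.0393 in males and from −0.09 to −0.045 in females. The male minus female effect ran from 0.0357 to 0.179 for Esr1 and from 0.042 to 0.132 for Pgr. The number of probe sets past the threshold was 0 to 1 in females, in males and for the male minus female effect.

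Replicate numbers were not taken as pairs, and whether they mark pairs was not settled. Same-numbered knockdown and control mice of a sex correlated between −0.18 and 0.32 in their deviations from group means. The same-numbered control was the best match for knockdown mice 1 and 3 in females and 6 in males, and not for the others. With the replicate block Pgr was −0.18 in females and −0.07 in males, Nr3c2 had a male minus female effect of −0.002, and no call changed.

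Among correlations, Esr1 with Nr3c2 was 0.28 within males and 0.15 without 2 mice, Esr2 with Nr3c1 was 0.16 without 2 mice, Pgr with Nr3c1 was −0.40 within females, Nr3c1 with Nr3c2 was −0.0295 within males, and Pgr with Nr3c2 was −0.69 within females (adjusted permutation p 0.0433 over the 10 pairs). Dim probe sets and 5 or 6 mice a group limit what could be detected.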

Other observations

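Some list genes outside the naming rule differed between the sexes in the direction of their knockdown difference, and were chosen after their values were seen. Gper1, the membrane estrogen receptor, averaged 6.04 in male knockdown and 6.23 in male control mice, and 6.43 in female knockdown and 6.32 in female control mice. The male minus female effect was −0.31 ± 0.14 (SE; limma, unadjusted p 0.031, adjusted p 0.85). Hsd3b2, named for a family of enzymes of steroid synthesis, averaged 4.68 in male knockdown and 4.97 in male control mice, and 5.19 in female knockdown and 5.06 in female control mice. Its male minus female effect was −0.42 ± 0.15 (SE; limma, unadjusted p 0.0092, adjusted p 0.85). Over all probe sets 5.7% had an unadjusted p under 0.05 for that difference and 0% passed after adjustment.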
